A study of Drosophila melanogaster with 30 samples.

Results

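Glutathione transferase genes were taken as the genes of the count table whose name is Gst followed by D, E, O, S, T or Z, the letters of the cytosolic classes delta, epsilon, omega, sigma, theta and zeta, and an optional number. The rule found 35 of 17559 genes: 11 delta, 14 epsilon, 3 omega, 1 sigma, 4 theta and 2 zeta genes. All 35 identifiers carry the same symbol in the reference annotation, and the genes are described over all 10 groups of the study. Glutathione transferases listed under other names, such as se (sepia, an omega enzyme of eye pigment synthesis), gfzf and the microsomal Mgstl, fall outside the rule and are given only beside the pathway lists.

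The series compared nuclear RNA from Drosophila melanogaster in 10 groups of 3 libraries, with the aim, by its title, of finding targets of Kdm4B, a histone demethylase. Flies of the lines labelled MB131 and MB477 were used with or without Kdm4B knockdown by RNA interference (RNAi), beside flies lacking CsChrimson, a cation channel opened by red light, whose line is not named. Each of these 5 kinds of fly was sampled naive and activated, the activated ones after 5 min of red light through CsChrimson and 10 min of rest. The labels give CS10 as the strain of 29 libraries and no strain for 1 naive MB477 RNAi library, and they give mushroom body as the tissue of all. Heads were crosslinked and nuclei were drawn from the homogenate with an antibody gel against the FLAG tag. The sources do not name the driver of the tag, the channel or the RNAi, nor age and sex. Activated flies without CsChrimson are named as the labels name them and lack the channel.

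Glutathione transferases join the thiol of glutathione to electrophilic molecules, among them insecticides, plant toxins and the reactive aldehydes that arise when lipids are oxidised, and some also reduce peroxides. The delta and epsilon classes are insect classes that grew by tandem duplication, and GstD1 of the fly is known for breaking down DDT. Many delta and epsilon genes are targets of CncC, the fly homologue of Nrf2, which Keap1 holds back until oxidants or electrophiles appear. Members outside that theme have other known roles: GstE14, also named Noppera-bo, is needed for ecdysteroid hormone synthesis, zeta enzymes act in tyrosine breakdown, and the sigma enzyme GstS1 is abundant in flight muscle.

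The members are grouped along the chromosomes (dm6 assembly, positions from Ensembl's gene models for it, all protein-coding). A run of 10 epsilon genes lies on chromosome 2R at chr2R:18396638-18409835 (13198 bases) in the order GstE10, GstE1 and then GstE2 to GstE9. GstE10 lies on the minus strand and the other 9 on the plus strand. All 11 delta genes form a run at chr3R:12364776-12385624 (20849 bases), with GstD10, GstD9 and GstD1 on the minus strand and the rest on the plus strand. The omega genes share chr3L:8518885-8524866, GstT1 and GstT2 share chr2R:9605988-9608350, and the zeta genes share chr3R:9455517-9460652. GstE11, GstE12, GstE13, GstE14 and GstS1 stand alone on 2R, and GstT3 and GstT4 stand alone on the X chromosome. Exons of GstE10 and GstE1 overlap on opposite strands, as do those of GstE9 and the immune gene imd, GstE12 and CG3894, GstE13 and CG18659, GstT2 and CG12926, and GstO2 and se. The sources used here do not give strand use or the treatment of reads that match several places, so these pairs, and near copies within a run, cannot be fully told apart.

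The total per library ran from 8291599 to 14344348 counts. Levels are given as CPM, counts scaled to library size. The 3 MB477 naive libraries stood apart on the leading principal component (log2 CPM, 26.8% of the variance), with scores of 64.2 to 68.0, against -25.5 to 22.9 in the remaining 27. Every comparison that uses MB477 naive rests on these libraries, and results that include it are given with and without it where both can be computed. Kdm4B itself lay at 0.752 to 1.02 CPM in MB131 naive and 0.663 to 1.55 CPM with RNAi (log2 fold change 0.24 ± 0.61, standard error (SE), edgeR adjusted p = 0.889), and at 0.473 to 1.14 and 0.32 to 1.37 CPM in MB477 naive (-0.09 ± 0.63, edgeR adjusted p = 0.912). In activated libraries Kdm4B differed with RNAi by -0.36 ± 0.60 in MB131 (edgeR adjusted p = 0.802) and by -1.05 ± 0.67 in MB477 (edgeR adjusted p = 0.285). None of the 4 passed the test, at 2 to 26 reads per library. The 95% intervals of the log2 fold change were -0.95 to 1.43 in naive and -1.55 to 0.82 in activated MB131, and -1.33 to 1.15 in naive and -2.36 to 0.26 in activated MB477, so falls beyond the lower bounds lie outside them and smaller ones were not detectable at this depth. Groups are called RNAi as the labels name them. Markers of Kenyon cells, which make up the mushroom body, were detected in all groups, with a summed level of 3057 to 5323 CPM over 12 genes. Photoreceptor markers (12 genes) summed to 11509.7 to 27551 CPM and fat body markers (10 of 12 found, yolk protein genes among them) to 12166 to 46265 CPM, so the libraries also hold RNA of other head tissues.

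Of the 35 genes, 31 passed the filter on low counts and were tested. GstD4, GstD5, GstD6 and GstD7, neighbours within the delta run, did not pass. Over all 30 libraries GstD4 had 51 reads, GstD5 had 41, GstD6 had 27 and GstD7 had 12, and no library held more than 12 reads of any of them. GstD4 was at 0 in 11 libraries, GstD5 in 12, GstD6 in 18 and GstD7 in 22. A count of 0 allows up to 3 reads, which is 0.217 to 0.376 CPM depending on the library, so levels under this cannot be told from absence.

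Compared per length, as RPKM (CPM divided by exon length in kilobases) averaged over the 10 groups, levels spanned a wide range. GstD1 (522 RPKM) and GstE12 (332 RPKM) led, followed by GstE9 (102 RPKM) and GstT4 (102 RPKM). GstE6 (80.4 RPKM), GstO3 (79.5 RPKM) and GstE3 (79.2 RPKM) came next and lay close together. GstS1 (24 RPKM) and GstZ2 (23.1 RPKM) stood in the middle of the order, and GstD2 (3.19 RPKM), GstE4 (2.1 RPKM) and GstD8 (0.90 RPKM) were the lowest of the tested genes. GstD1 and GstE12 together gave 45.1% to 52.2% of the summed CPM of the 35 genes in each library. The summed level ran from 1506 to 2472 CPM over the libraries. It was 1571 to 1684 CPM in MB131 naive and 1742 to 1809.7 CPM in MB131 activated libraries, 2225 to 2267 CPM in MB477 naive and 2116 to 2145 CPM in MB477 activated libraries, and 1668 to 1720.4 CPM in naive and 2364 to 2472 CPM in activated MB477 libraries with RNAi. In MB131 with RNAi it was 1506 to 1582 CPM in naive and 1824 to 1904 CPM in activated libraries, and without CsChrimson 1543 to 1594 and 1699 to 1766 CPM. Activated libraries lay above naive ones in 4 of the 5 kinds of fly and below them in MB477 without RNAi.

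The first comparison, activated against naive flies, asks which genes respond to stimulation, and the flies without CsChrimson are the control that lacks the channel. Epsilon genes of the run on 2R were higher after activation in all 5 kinds of fly. GstE1, GstE3, GstE6, GstE7, GstE8, GstE9 and GstE10 rose in all 5 comparisons, which share no libraries, by 0.19 to 2.03 on the log2 scale. Outside the run no gene rose in all 5: GstD1, GstD10 and GstO3 rose in 4. In the other direction GstE14 and GstT4 fell in 4, and no gene fell in all 5. GstD3, GstO1, GstT1 and GstZ1 did not pass the test in any of the 5. The shares of all genes that rose in 4, fell in 4 or passed in none of the 5 were not counted. These numbers of genes therefore have no background beside them. In bulk RNA of this kind, more cells of a type and more RNA per cell cannot be told apart.

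**Figure D1:**
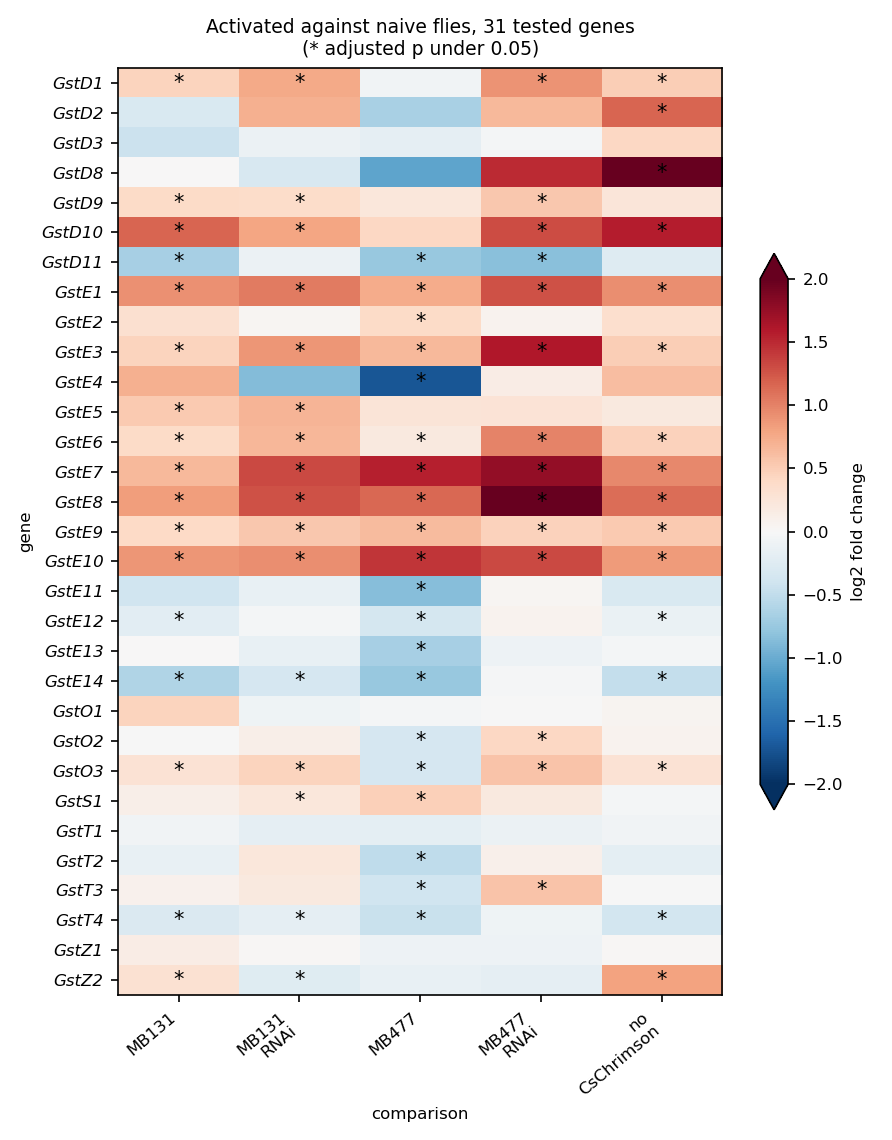
Log2 fold change of activated against naive flies for the 31 tested glutathione transferase genes (rows) in 5 comparisons of 3 against 3 libraries (columns), with asterisks where the edgeR adjusted p is under 0.05; colours stop at -2 and 2. GstE1, GstE3 and GstE6 to GstE10 carry a positive value with an asterisk in every column, and the MB477 column holds 11 of the 31 genes with a negative value past the test.

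Among the 31 tested genes 13 rose and 4 fell in MB131 (edgeR's quasi-likelihood test with Benjamini-Hochberg adjustment over all genes, threshold 0.05). Of all genes tested, 12.7% rose and 11.8% fell there. With RNAi in MB131, 13 rose and 3 fell, against 13.8% and 13.0% of all genes. In MB477 9 rose and 11 fell, against 31.8% and 27.7% of all genes. With RNAi in MB477, 13 rose and 1 fell, against 15.6% and 13.1%. Without CsChrimson 13 rose and 3 fell, against 11.1% and 9.98%. In MB131 4 of 31 falling (12.9%) is close to the background share, as is 3 of 31 falling (9.68%) without CsChrimson. With RNAi in MB131, 3 of 31 falling (9.68%) is somewhat below its share, and in MB477 9 of 31 rising (29.0%) is slightly below its share. The median log2 fold change of the 31 genes was 0.29 in MB131, 0.19 with RNAi, -0.15 in MB477, 0.27 with RNAi and 0.28 in flies lacking CsChrimson. That of all genes was 0.00 in each of the 5. Nothing in the labels shows whether replicates were separate flies or batches of flies, so the p-values measure a spread between libraries that may be technical.

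Of all 11457 genes tested, 276 (2.41%) rose in all 5 comparisons, beside 7 of the 31 here, all 7 in the epsilon run. In the 4 comparisons that do not use MB477 naive, 10 of the 31 rose in every one, the 7 with GstD1, GstD10 and GstO3, against 3.12% of all genes. None of the 31 fell in those 4, against 2.38% of all genes, and none fell in all 5, against 1.47%. All activated libraries lay above all naive ones in all 5 comparisons for 9 of the 31 genes, the 7 with GstD9 and GstD10, against 2.87% of all genes. None of the 31 had all activated below all naive libraries in all 5, against 2.02% of all genes. Leaving out MB477 naive replicate 2 or 3, or MB477 activated replicate 1 or 2, brought the count of 7 to 6 by the loss of GstE6. Without the no CsChrimson activated replicate 2 the count of 10 fell to 9 by the loss of GstO3.

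Marker levels moved with the same comparisons. Photoreceptor markers rose in 12 of 12 genes in MB131, in MB131 with RNAi and without CsChrimson, in 11 of 12 in MB477, where 1 fell, and in 8 of 12 in MB477 with RNAi. Their summed level was 16136 to 16675 CPM in naive and 25552 to 25855 CPM in activated MB131 libraries, 15651 to 16052 and 27065 to 27551 CPM without CsChrimson, and 17804 to 17977 and 20430.3 to 21318 CPM in MB477 with RNAi. Fat body markers rose in 8 of the 9 tested genes in MB131, in 7 with RNAi, in 8 in MB477, where 1 fell, and in 7 in MB477 with RNAi. In MB131 their summed level was 13897 to 14208 CPM before and 25150.2 to 26649.9 CPM after activation, and in MB477 21954 to 22512 CPM before and 44390.1 to 46265 CPM after. In the order MB131, MB131 with RNAi, MB477, MB477 with RNAi and no CsChrimson, Kenyon cell markers rose in 0, 2, 8, 1 and 6 and fell in 8, 3, 4, 9 and 2 of 12 genes. Muscle markers rose in 0, 0, 3, 11 and 0 and fell in 8, 11, 6, 0 and 8 of the 11 tested. Glia markers rose in 2, 2, 7, 2 and 3 and fell in 4, 6, 1, 5 and 3 of 10, and hemocyte markers rose in 1, 3, 6, 2 and 2 and fell in 1 each of 10. Without CsChrimson 3 fat body markers rose and 2 fell, and their summed level was 13692 to 16763 CPM in naive and 12876 to 14956 CPM in activated libraries, which overlap. Glia markers summed to 2573 to 3451 CPM and hemocyte markers to 343 to 461 CPM over all groups. The part of these cell types in the results was not tested.

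Within the epsilon run, 8 of 10 genes rose in MB131, 8 with RNAi and 8 in MB477, and 7 each in MB477 with RNAi and in flies lacking CsChrimson. Of all genes, 12.7% rose in MB131, 13.8% with RNAi, 31.8% in MB477, 15.6% with RNAi and 11.1% without CsChrimson. In MB477, 27.7% of all genes fell. GstE4 fell in MB477 and was the only gene of the run to fall in any of the 5. The median log2 fold change of the run was 0.58 in MB131, 0.79 with RNAi, 0.64 in MB477, 1.14 with RNAi and 0.57 without CsChrimson. The other 4 epsilon genes, which lie elsewhere on 2R, rose in none of the 5 comparisons. With 4 genes, none rising is not far from the 11.1% to 31.8% of all genes that rose.

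**Figure D2:**
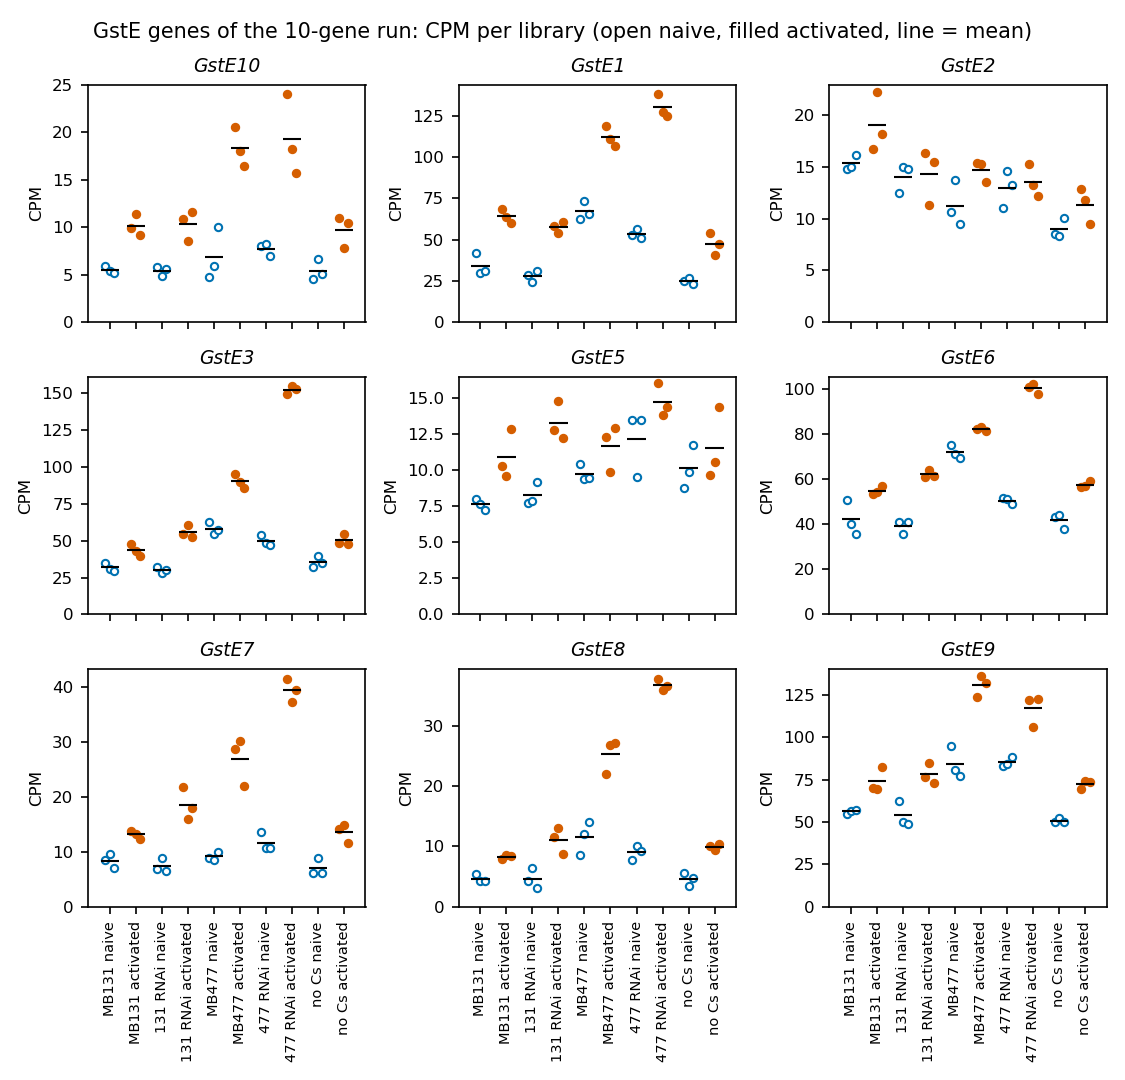
CPM of 9 epsilon genes of the 2R run in every library (points, open for naive and filled for activated) with the mean of each group of 3 libraries (line), over 10 groups. GstE4, the lowest gene of the run and the only one to fall past the test, is not shown. In GstE1, GstE3 and GstE6 to GstE10 the filled points lie above the open ones in each of the 5 neighbouring pairs of groups; in GstE2 and GstE5 they overlap in some.

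GstE8 had the largest fitted rise of the run, in MB477 with RNAi. In MB131, GstE8 lay at 5.43, 4.26 and 4.26 CPM in the naive and at 7.85, 8.61 and 8.48 CPM in the activated libraries, and with RNAi at 4.21, 6.38 and 3.07 and at 11.5, 13.1 and 8.69 CPM. In MB477, GstE8 lay at 8.54, 12.1 and 14.1 CPM in the naive and at 22, 26.9 and 27.2 CPM in the activated libraries, and with RNAi at 7.73, 10.1 and 9.2 and at 37.7, 35.9 and 36.7 CPM. Without CsChrimson, GstE8 lay at 5.54, 3.42 and 4.75 CPM in the naive and at 10.1, 9.35 and 10.3 CPM in the activated libraries. The activated libraries lay above the naive ones in all 5 pairs of groups, and the activated MB477 RNAi libraries were the highest of all 30. The log2 fold changes were 0.83 ± 0.20 in MB131 and 1.27 ± 0.19 with RNAi, 1.14 ± 0.17 in MB477 and 2.03 ± 0.17 with RNAi, and 1.11 ± 0.20 without CsChrimson. The largest of their edgeR adjusted p-values was 7.01e-04, and all 3 activated libraries were above all 3 naive ones each time.

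GstE7 is the neighbour of GstE8. In MB131, GstE7 lay at 8.52, 9.64 and 6.96 CPM in the naive and at 13.8, 13.3 and 12.4 CPM in the activated libraries, and with RNAi at 6.93, 8.83 and 6.47 and at 21.8, 15.9 and 17.9 CPM. In MB477, GstE7 lay at 8.93, 8.55 and 9.93 CPM in the naive and at 28.7, 30.1 and 21.9 CPM in the activated libraries, and with RNAi at 13.6, 10.6 and 10.7 and at 41.5, 37.3 and 39.4 CPM. Without CsChrimson, GstE7 lay at 6.11, 8.79 and 6.1 CPM in the naive and at 14.2, 14.9 and 11.7 CPM in the activated libraries. No naive library reached the level of an activated library of the same kind of fly. The changes on the log2 scale were 0.65 ± 0.16 in MB131 and 1.32 ± 0.16 with RNAi, 1.56 ± 0.16 in MB477 and 1.75 ± 0.15 with RNAi, and 0.96 ± 0.17 without CsChrimson, with edgeR adjusted p-values of at most 0.00123.

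GstE3 lies between GstE2 and GstE4 in the run. In MB131, GstE3 lay at 34.7, 31 and 29.8 CPM in the naive and at 47.9, 42.9 and 39.7 CPM in the activated libraries, and with RNAi at 32.1, 28 and 30.3 and at 54.3, 61 and 52.7 CPM. In MB477, GstE3 lay at 62.4, 54.3 and 57 CPM in the naive and at 95.3, 89.9 and 86.1 CPM in the activated libraries, and with RNAi at 54, 48.4 and 47.3 and at 149, 155 and 153 CPM. Without CsChrimson, GstE3 lay at 32, 39.9 and 35.1 CPM in the naive and at 48.3, 54.5 and 48 CPM in the activated libraries. The 3 activated MB477 RNAi libraries were the highest of all 30, and activated libraries lay above naive ones in every kind of fly. Log2 fold changes of GstE3 were 0.45 ± 0.09 in MB131 and 0.89 ± 0.09 with RNAi, 0.64 ± 0.08 in MB477 and 1.61 ± 0.08 with RNAi, and 0.50 ± 0.09 without CsChrimson (edgeR adjusted p at most 2.35e-05).

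GstE1 was likewise higher in MB477 than in MB131 before and after activation. In MB131, GstE1 lay at 41.8, 29.8 and 30.8 CPM in the naive and at 68.6, 63.5 and 60.3 CPM in the activated libraries, and with RNAi at 28.5, 24.5 and 30.9 and at 58.6, 53.8 and 60.6 CPM. In MB477, GstE1 lay at 62.3, 73.3 and 65.7 CPM in the naive and at 119, 111 and 106 CPM in the activated libraries, and with RNAi at 53.1, 56.5 and 51.2 and at 138, 128 and 125 CPM. Without CsChrimson, GstE1 lay at 24.9, 26.9 and 23.2 CPM in the naive and at 54.1, 40.9 and 47.5 CPM in the activated libraries. The groups did not overlap within any kind of fly. GstE1 changed by 0.91 ± 0.09 in MB131 and 1.04 ± 0.09 with RNAi, 0.74 ± 0.09 in MB477 and 1.28 ± 0.09 with RNAi, and 0.92 ± 0.10 without CsChrimson (log2 scale, edgeR adjusted p at most 3.07e-12). Its exons share 20 bases with those of GstE10.

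GstE6 rose in all 5, with its smallest value in MB477. In MB131, GstE6 lay at 51, 40.2 and 35.7 CPM in the naive and at 53.5, 54.5 and 57 CPM in the activated libraries, and with RNAi at 41.2, 35.6 and 41 and at 61, 64.3 and 61.4 CPM. In MB477, GstE6 lay at 75.5, 71.5 and 69.5 CPM in the naive and at 82.3, 83.4 and 81.5 CPM in the activated libraries, and with RNAi at 51.5, 51.2 and 49.2 and at 101, 102 and 98.2 CPM. Without CsChrimson, GstE6 lay at 43.3, 44.1 and 38 CPM in the naive and at 56.7, 57 and 59.3 CPM in the activated libraries. The MB477 naive libraries were already above the activated ones of MB131 and of the flies without CsChrimson. The log2 fold changes of GstE6 were 0.38 ± 0.08 in MB131 and 0.66 ± 0.08 with RNAi, 0.19 ± 0.08 in MB477 and 0.99 ± 0.08 with RNAi, and 0.46 ± 0.08 without CsChrimson (edgeR adjusted p at most 0.0289).

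GstE9, the last gene of the run, lies across from imd. In MB131, GstE9 lay at 54.6, 56.7 and 57.2 CPM in the naive and at 70.3, 69.2 and 82.3 CPM in the activated libraries, and with RNAi at 62.4, 50.1 and 48.9 and at 76.4, 84.8 and 72.8 CPM. In MB477, GstE9 lay at 94.6, 80.8 and 77 CPM in the naive and at 124, 136 and 132 CPM in the activated libraries, and with RNAi at 83.2, 84.4 and 88.3 and at 122, 106 and 123 CPM. Without CsChrimson, GstE9 lay at 49.9, 52 and 49.98 CPM in the naive and at 69.1, 74.3 and 73.7 CPM in the activated libraries. Activated libraries were above naive ones in every kind of fly, with changes of 0.40 ± 0.08 in MB131 and 0.53 ± 0.08 with RNAi, 0.63 ± 0.07 in MB477 and 0.46 ± 0.07 with RNAi, and 0.52 ± 0.08 without CsChrimson (log2 scale, edgeR adjusted p at most 1.87e-05). The imd gene itself passed the test in none of the 5 comparisons, with values from -0.28 ± 0.13 in MB477 to 0.27 ± 0.14 in MB131.

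GstE10, on the strand opposite to the rest of the run, was a low-level gene. In MB131, GstE10 lay at 5.93, 5.37 and 5.13 CPM in the naive and at 9.87, 11.4 and 9.2 CPM in the activated libraries, and with RNAi at 5.77, 4.91 and 5.55 and at 10.8, 8.58 and 11.6 CPM. In MB477, GstE10 lay at 4.71, 5.89 and 10.05 CPM in the naive and at 20.6, 18 and 16.5 CPM in the activated libraries, and with RNAi at 8.03, 8.22 and 6.96 and at 24.1, 18.2 and 15.7 CPM. Without CsChrimson, GstE10 lay at 4.56, 6.66 and 5.04 CPM in the naive and at 11, 7.79 and 10.4 CPM in the activated libraries. Its log2 fold changes were 0.88 ± 0.20 in MB131 and 0.94 ± 0.20 with RNAi, 1.43 ± 0.20 in MB477 and 1.31 ± 0.19 with RNAi, and 0.85 ± 0.21 without CsChrimson (edgeR adjusted p at most 9.04e-04), and in each kind of fly the 3 activated libraries exceeded the 3 naive ones.

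Of the other genes of the run, GstE5 rose in MB131 (0.52 ± 0.18, edgeR adjusted p = 0.0237) and in MB131 with RNAi (0.68 ± 0.17, edgeR adjusted p = 0.00109), from group means of 7.64 to 10.9 CPM and 8.25 to 13.3 CPM. In the other 3 its values were 0.19 to 0.27. GstE2 rose in MB477 alone of the 5 (0.38 ± 0.16, edgeR adjusted p = 0.0383), where its naive libraries held 10.6, 13.7 and 9.46 CPM and its activated ones 15.4, 15.3 and 13.5 CPM, which overlap.

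GstE4 was the lowest gene of the run. In MB131, GstE4 lay at 0.501, 0.682 and 1.22 CPM in the naive and at 0.617, 1.47 and 1.82 CPM in the activated libraries, and with RNAi at 1.95, 2.04 and 1.82 and at 0.248, 1.23 and 1.67 CPM. In MB477, GstE4 lay at 1.28, 5.13 and 4.96 CPM in the naive and at 0.697, 1.66 and 1.09 CPM in the activated libraries, and with RNAi at 2.5, 3.29 and 2.64 and at 2.63, 2.36 and 4.21 CPM. Without CsChrimson, GstE4 lay at 0.407, 0.926 and 0.678 CPM in the naive and at 0.722, 1.3 and 1.05 CPM in the activated libraries. The naive MB477 libraries were high and spread widely, and they overlapped the activated ones. In MB477 GstE4 fell by 1.70 ± 0.48 (log2, edgeR adjusted p = 0.00124). Elsewhere the values of GstE4 were -0.87 ± 0.49 to 0.71 ± 0.54 and did not pass. The value of -0.87 was that of MB131 with RNAi, where all activated libraries lay below all naive ones.

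**Figure D3:**
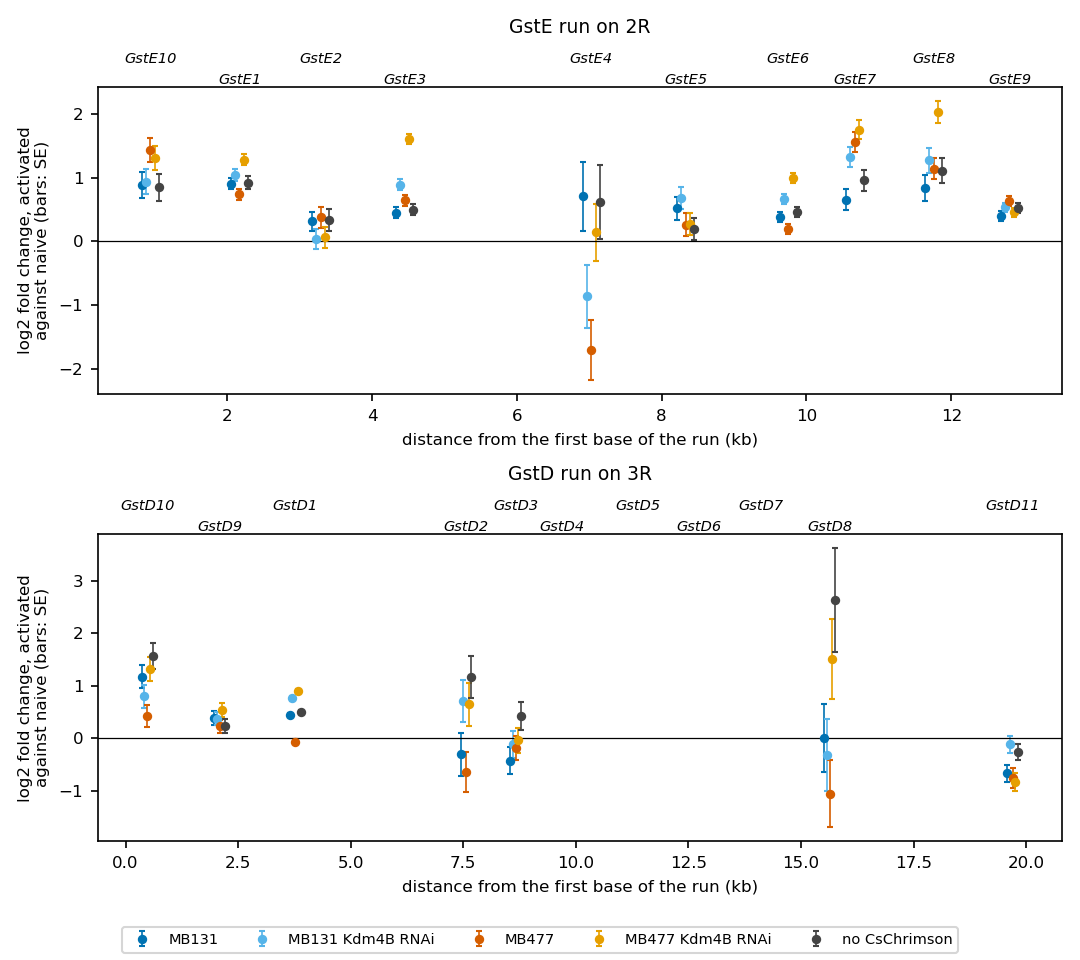
Log2 fold change of activated against naive flies (points, bars for SE, 5 colours for the 5 kinds of fly) against the distance of each gene's middle from the first base of the run in kilobases, for the epsilon run on 2R (top) and the delta run on 3R (bottom). In the epsilon run GstE7 and GstE8 reach 1.75 and 2.03 in MB477 with RNAi, and GstE4 lies below 0 in MB477 and in MB131 with RNAi. GstD4 to GstD7 have no points because they did not pass the filter.

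In the delta run, 3 of the 7 tested genes rose and 1 fell in MB131, and 3 rose in MB131 with RNAi. None rose and 1 fell in MB477, 3 rose and 1 fell in MB477 with RNAi, and 4 rose without CsChrimson. Of all genes, 12.7% rose and 11.8% fell in MB131, 13.8% and 13.0% with RNAi, and 31.8% and 27.7% in MB477. The shares were 15.6% and 13.1% in MB477 with RNAi and 11.1% and 9.98% without CsChrimson. A fall of 1 in 7 (14.3%) is near the share in MB131 and in MB477 with RNAi. In MB477 it is below the share. GstD1, the DDT-degrading enzyme and the most abundant member, rose in 4 of the 5. In MB131, GstD1 lay at 356, 361 and 349.6 CPM in the naive and at 478, 486 and 485 CPM in the activated libraries, and with RNAi at 314, 301 and 292 and at 510.1, 525 and 495 CPM. In MB477, GstD1 lay at 534, 528 and 536 CPM in the naive and at 509, 512 and 505 CPM in the activated libraries, and with RNAi at 323, 341 and 332 and at 621, 621 and 604 CPM. Without CsChrimson, GstD1 lay at 307, 320.0 and 320.0 CPM in the naive and at 446, 443 and 448 CPM in the activated libraries. In MB477 the activated libraries lay slightly below the naive ones, which already exceeded every other naive group. The log2 fold changes of GstD1 were 0.44 ± 0.04 in MB131 and 0.75 ± 0.04 with RNAi, -0.07 ± 0.04 in MB477 and 0.89 ± 0.04 with RNAi, and 0.50 ± 0.04 without CsChrimson. In the 4 that rose the largest edgeR adjusted p was 1.37e-16, and in MB477 it was 0.155. DESeq2 called the small difference in MB477 (adjusted p = 0.0448), as did edgeR fitted on the groups compared alone (adjusted p = 0.0393).

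GstD10, at the start of the delta run, was among the largest rises of the 31 genes. In MB131, GstD10 lay at 5.18, 3.16 and 4.96 CPM in the naive and at 10.3, 8.88 and 10.7 CPM in the activated libraries, and with RNAi at 3.97, 5.56 and 3.73 and at 8.77, 7.36 and 6.88 CPM. In MB477, GstD10 lay at 8.93, 8.55 and 6.86 CPM in the naive and at 9.93, 12 and 10.8 CPM in the activated libraries, and with RNAi at 4.7, 2.47 and 4.24 and at 8.9, 8.78 and 10.8 CPM. Without CsChrimson, GstD10 lay at 2.28, 2.68 and 3.49 CPM in the naive and at 7.13, 10.7 and 7.01 CPM in the activated libraries. Activated libraries were above naive ones in all 5 kinds of fly. For GstD10 the log2 fold changes were 1.17 ± 0.22 in MB131 and 0.79 ± 0.23 with RNAi, 0.42 ± 0.21 in MB477 and 1.31 ± 0.23 with RNAi, and 1.57 ± 0.24 without CsChrimson. The value for MB477 did not pass the test (edgeR adjusted p = 0.0822), and the other 4 did (at most 0.00415).

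GstD9, next to GstD10, rose in 3. In MB131, GstD9 lay at 18.4, 18.8 and 17.5 CPM in the naive and at 21.3, 24.8 and 25 CPM in the activated libraries, and with RNAi at 18.1, 16.1 and 18.2 and at 22.3, 22.2 and 23.3 CPM. In MB477, GstD9 lay at 16.7, 17.9 and 18.4 CPM in the naive and at 19.6, 22.8 and 19.4 CPM in the activated libraries, and with RNAi at 13.1, 13.4 and 11 and at 18.8, 17.4 and 18.1 CPM. Without CsChrimson, GstD9 lay at 14.7, 16.4 and 13.6 CPM in the naive and at 17.2, 18.6 and 16.7 CPM in the activated libraries. Its activated libraries again lay above the naive ones in all 5. The log2 fold changes of GstD9 were 0.38 ± 0.13 in MB131 and 0.37 ± 0.13 with RNAi, 0.22 ± 0.13 in MB477 and 0.54 ± 0.14 with RNAi, and 0.23 ± 0.13 without CsChrimson, of which those in MB131, MB131 with RNAi and MB477 with RNAi passed the test (edgeR adjusted p at most 0.0183). The MB131 call was lost without naive replicate 3, activated replicate 2 or activated replicate 3, with edgeR adjusted p-values of 0.0643 to 0.0719.

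GstD11, at the far end of the delta run, went the other way. In MB131, GstD11 lay at 19.8, 20.9 and 15.1 CPM in the naive and at 9.34, 14.9 and 10.9 CPM in the activated libraries, and with RNAi at 14.3, 12 and 15.9 and at 12.1, 13.5 and 13.4 CPM. In MB477, GstD11 lay at 8.84, 7.6 and 9.93 CPM in the naive and at 6.1, 5.07 and 4.36 CPM in the activated libraries, and with RNAi at 17.1, 13.6 and 15.6 and at 9.78, 8.33 and 7.95 CPM. Without CsChrimson, GstD11 lay at 18.8, 15.9 and 17.4 CPM in the naive and at 13.1, 12.9 and 17.4 CPM in the activated libraries. Naive libraries lay above activated ones in MB131, MB477 and MB477 with RNAi. For GstD11 the log2 fold changes were -0.67 ± 0.16 in MB131 and -0.12 ± 0.16 with RNAi, -0.76 ± 0.19 in MB477 and -0.84 ± 0.18 with RNAi, and -0.27 ± 0.16 without CsChrimson, and the values for MB131, MB477 and MB477 with RNAi passed the test (edgeR adjusted p at most 7.19e-04).

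The remaining delta genes were low. In MB131, GstD2 lay at 2.92, 1.71 and 2.18 CPM in the naive and at 0.882, 2.2 and 2.38 CPM in the activated libraries, and with RNAi at 1.09, 1.72 and 1.66 and at 2.65, 3.42 and 1.3 CPM. In MB477, GstD2 lay at 3.93, 2.47 and 3.66 CPM in the naive and at 1.74, 2.16 and 2.47 CPM in the activated libraries, and with RNAi at 1.29, 1.46 and 2.24 and at 2.01, 3.6 and 2.2 CPM. Without CsChrimson, GstD2 lay at 1.71, 2.22 and 1.26 CPM in the naive and at 2.98, 3.9 and 4.82 CPM in the activated libraries. Only without CsChrimson did no naive library of GstD2 reach an activated one, and there it rose by 1.17 ± 0.39 (edgeR adjusted p = 0.0228).

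GstD8 had the fewest reads of the tested genes. In MB131, GstD8 lay at 0.167, 1.36 and 1.04 CPM in the naive and at 0.793, 0.824 and 0.952 CPM in the activated libraries, and with RNAi at 1.01, 0.818 and 0.415 and at 0.331, 1.05 and 0.435 CPM. In MB477, GstD8 lay at 1.963, 1.81 and 0.709 CPM in the naive and at 0.435, 0.997 and 0.727 CPM in the activated libraries, and with RNAi at 0.379, 0.183 and 0.40 and at 1.38, 1.13 and 0.383 CPM. Without CsChrimson, GstD8 lay at 0, 0 and 0.291 CPM in the naive and at 0.451, 0.779 and 0.614 CPM in the activated libraries. GstD8 likewise had separate groups only without CsChrimson, where it rose by 2.63 ± 0.99 (edgeR adjusted p = 0.0457), from 3 reads over the 3 naive libraries to 21 over the 3 activated ones. Per library size that is a ratio of 6.87 with an exact 95% interval of 2.05 to 36.0 for counting error alone. With the replicate number as a block the edgeR adjusted p of GstD8 was 0.0513. In the other 4 comparisons the values of GstD2 and GstD8 had SEs of 0.39 to 0.76 and did not pass the test.

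GstD3 lies beside GstD2. In MB131, GstD3 lay at 6.35, 3.67 and 5.92 CPM in the naive and at 3.79, 3.48 and 4.52 CPM in the activated libraries, and with RNAi at 3.97, 5.89 and 4.73 and at 4.71, 3.85 and 4.78 CPM. In MB477, GstD3 lay at 10.01, 5.99 and 11.5 CPM in the naive and at 9.06, 8.31 and 6.69 CPM in the activated libraries, and with RNAi at 7.12, 8.86 and 8.56 and at 5.77, 7.2 and 10.5 CPM. Without CsChrimson, GstD3 lay at 3.01, 3.79 and 2.81 CPM in the naive and at 4.69, 4.85 and 3.33 CPM in the activated libraries. GstD3 passed in none of the 5, with overlapping groups in each and changes from -0.43 ± 0.26 to 0.42 ± 0.27.

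**Figure D4:**
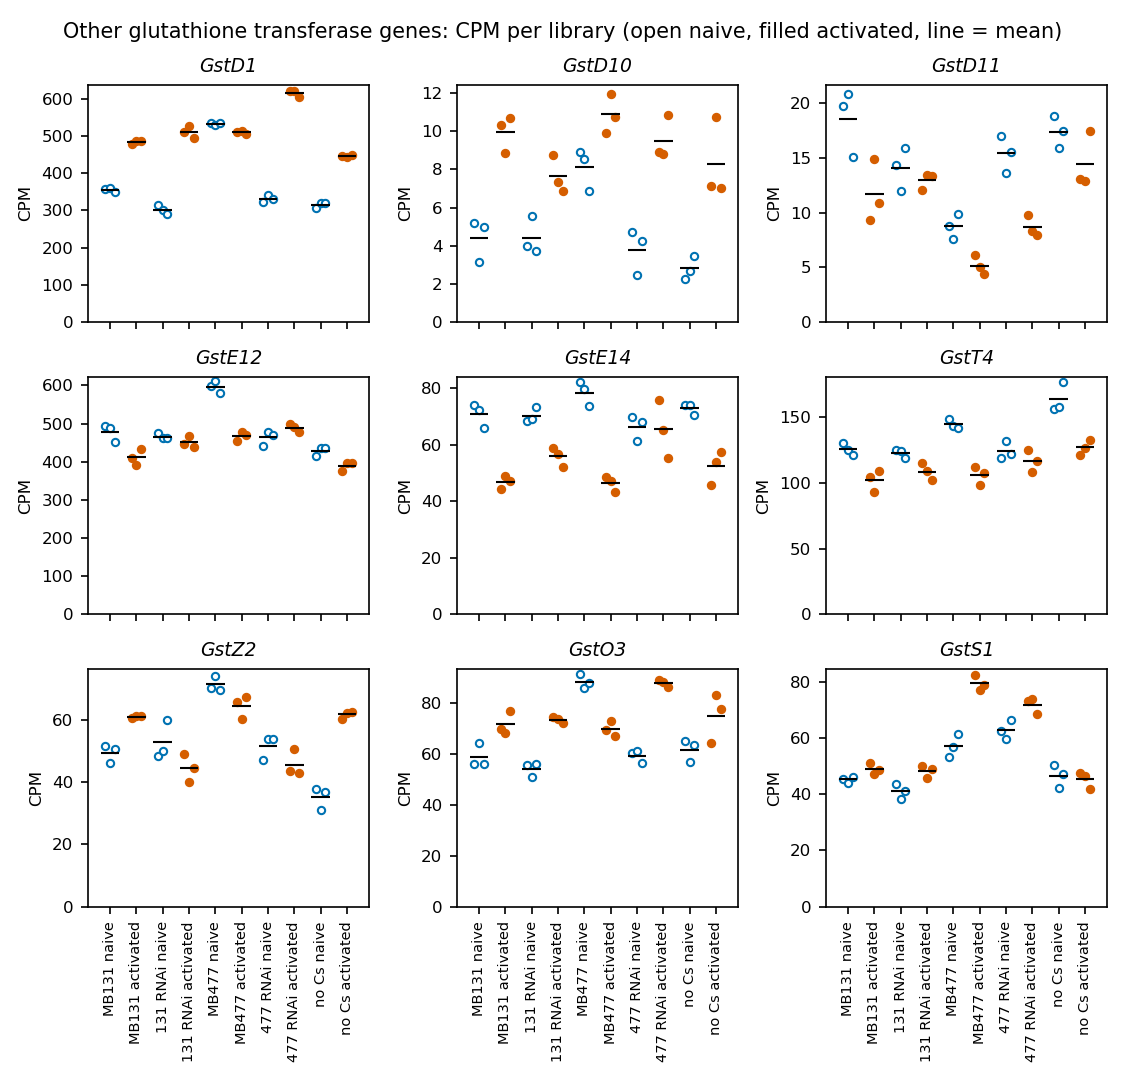
CPM of 9 glutathione transferase genes outside the epsilon run in every library (points, open for naive and filled for activated) with the mean of each group of 3 libraries (line), over 10 groups. The group means of GstD1 and GstO3 are higher after activation in 4 pairs of groups and lower in MB477, and all activated libraries of GstE14 and GstT4 lie below the naive ones in 4 pairs.

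Among the epsilon genes away from the run, GstE12, second to GstD1 in level per length, fell in 3 comparisons. In MB131, GstE12 lay at 493, 489 and 452 CPM in the naive and at 409, 391 and 434 CPM in the activated libraries, and with RNAi at 474, 462 and 462 and at 448, 468 and 439 CPM. In MB477, GstE12 lay at 599, 611 and 579.6 CPM in the naive and at 455, 479 and 469 CPM in the activated libraries, and with RNAi at 442, 478 and 471 and at 498, 491 and 478 CPM. Without CsChrimson, GstE12 lay at 414, 435 and 435 CPM in the naive and at 376, 397 and 397 CPM in the activated libraries. The MB477 naive libraries were the highest. For GstE12 the log2 fold changes were -0.22 ± 0.04 in MB131 and -0.05 ± 0.04 with RNAi, -0.35 ± 0.04 in MB477 and 0.08 ± 0.04 with RNAi, and -0.14 ± 0.04 without CsChrimson, and the falls in MB131, MB477 and flies without CsChrimson passed the test (edgeR adjusted p at most 0.0141).

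GstE14, the ecdysteroid gene, fell in 4. In MB131, GstE14 lay at 74, 72.4 and 66 CPM in the naive and at 44.3, 48.8 and 47.2 CPM in the activated libraries, and with RNAi at 68.5, 69 and 73.4 and at 59, 56.7 and 52 CPM. In MB477, GstE14 lay at 82.1, 79.6 and 73.5 CPM in the naive and at 48.6, 47 and 43.4 CPM in the activated libraries, and with RNAi at 69.8, 61.2 and 68 and at 75.7, 65.1 and 55.4 CPM. Without CsChrimson, GstE14 lay at 74.1, 74 and 70.4 CPM in the naive and at 45.7, 54 and 57.5 CPM in the activated libraries. In MB477 with RNAi the groups overlapped, and in the other 4 no activated library reached a naive one. Log2 fold changes of GstE14 were -0.60 ± 0.08 in MB131 and -0.33 ± 0.08 with RNAi, -0.76 ± 0.08 in MB477 and -0.03 ± 0.08 with RNAi, and -0.48 ± 0.08 without CsChrimson. The 4 falls had edgeR adjusted p-values of at most 5.63e-04, and the value in MB477 with RNAi had 0.836. GstE11 fell only in MB477 of the 5 (-0.85 ± 0.15, edgeR adjusted p = 8.35e-07), and so did GstE13 (-0.67 ± 0.19, edgeR adjusted p = 0.00155).

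Of the 4 theta genes GstT4, the most abundant, fell in 4 comparisons. In MB131, GstT4 lay at 130.5, 125 and 121 CPM in the naive and at 105, 93.4 and 109 CPM in the activated libraries, and with RNAi at 125, 124 and 119 and at 114.9, 109 and 102 CPM. In MB477, GstT4 lay at 148, 143 and 142 CPM in the naive and at 112, 98.7 and 107 CPM in the activated libraries, and with RNAi at 119, 132 and 122 and at 125, 108 and 117 CPM. Without CsChrimson, GstT4 lay at 156, 158 and 177 CPM in the naive and at 121, 127 and 133 CPM in the activated libraries. Activated libraries lay below naive ones in all but MB477 with RNAi, where they overlapped. For GstT4 the log2 fold changes were -0.29 ± 0.06 in MB131 and -0.18 ± 0.06 with RNAi, -0.45 ± 0.06 in MB477 and -0.09 ± 0.06 with RNAi, and -0.36 ± 0.06 without CsChrimson, and 4 of these passed the test (edgeR adjusted p at most 0.0197).

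GstT3, on the X chromosome like GstT4, went both ways. In MB131, GstT3 lay at 41.7, 42.1 and 42.6 CPM in the naive and at 43.9, 44.4 and 45.3 CPM in the activated libraries, and with RNAi at 45.5, 42.4 and 46.4 and at 52.2, 54.1 and 46.9 CPM. In MB477, GstT3 lay at 68.5, 68.4 and 63.1 CPM in the naive and at 51.5, 47.3 and 52.5 CPM in the activated libraries, and with RNAi at 42.1, 39.3 and 41.9 and at 66.7, 54.7 and 62.5 CPM. Without CsChrimson, GstT3 lay at 44.2, 46.1 and 46 CPM in the naive and at 42.2, 48.8 and 45.1 CPM in the activated libraries. Activated libraries were above naive ones in MB131 and with RNAi in both lines, and below them in MB477. GstT3 fell in MB477 (-0.40 ± 0.08) and rose in MB477 with RNAi (0.58 ± 0.08), with edgeR adjusted p-values of at most 8.97e-06. GstT2 fell in MB477 (-0.51 ± 0.11, edgeR adjusted p = 1.87e-05), while GstT1, its neighbour, did not pass there (-0.19 ± 0.10, edgeR adjusted p = 0.083).

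Among the omega genes GstO3 rose in 4 comparisons and fell in MB477. In MB131, GstO3 lay at 56.1, 64.2 and 55.9 CPM in the naive and at 69.7, 68.3 and 76.9 CPM in the activated libraries, and with RNAi at 55.6, 50.9 and 56 and at 74.4, 73.8 and 72.1 CPM. In MB477, GstO3 lay at 91.4, 85.7 and 87.9 CPM in the naive and at 69.3, 73 and 67.2 CPM in the activated libraries, and with RNAi at 60.5, 61.1 and 56.3 and at 89, 88.1 and 86.2 CPM. Without CsChrimson, GstO3 lay at 65, 56.8 and 63.4 CPM in the naive and at 64.4, 83.3 and 77.5 CPM in the activated libraries. All activated libraries were above all naive ones in MB131, MB131 with RNAi and MB477 with RNAi, and all were below in MB477, while those without CsChrimson overlapped. Log2 fold changes of GstO3 were 0.29 ± 0.08 in MB131 and 0.44 ± 0.08 with RNAi, -0.34 ± 0.07 in MB477 and 0.57 ± 0.08 with RNAi, and 0.28 ± 0.08 without CsChrimson, and all 5 passed the test (edgeR adjusted p at most 0.00274). GstO2 fell in MB477 (-0.34 ± 0.07) and rose in MB477 with RNAi (0.42 ± 0.07), with edgeR adjusted p-values of at most 3.57e-05. GstO1 did not pass in any, its largest value being 0.44 ± 0.20 in MB131.

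The sigma gene GstS1 rose in MB131 with RNAi and in MB477. In MB131, GstS1 lay at 45.4, 44.2 and 46.3 CPM in the naive and at 51.3, 47.2 and 48.6 CPM in the activated libraries, and with RNAi at 43.7, 38.2 and 41.3 and at 49.96, 45.7 and 49.2 CPM. In MB477, GstS1 lay at 53.2, 57 and 61.3 CPM in the naive and at 82.5, 77.3 and 78.8 CPM in the activated libraries, and with RNAi at 62.7, 59.6 and 66.4 and at 73.1, 73.8 and 68.5 CPM. Without CsChrimson, GstS1 lay at 50.4, 42.3 and 47.1 CPM in the naive and at 47.7, 46.5 and 42 CPM in the activated libraries. Activated libraries were above naive ones in all but the flies without CsChrimson. For GstS1 the log2 fold changes were 0.11 ± 0.08 in MB131 and 0.23 ± 0.08 with RNAi, 0.48 ± 0.08 in MB477 and 0.19 ± 0.08 with RNAi, and -0.04 ± 0.08 without CsChrimson, with edgeR adjusted p-values of 0.0213 in MB131 with RNAi and 8.39e-08 in MB477. Muscle markers, 12 genes of which 11 were tested, fell in 8 genes in MB131, in all 11 with RNAi and in 6 in MB477, where 3 rose, and they rose in all 11 in MB477 with RNAi and fell in 8 without CsChrimson. Their summed level was 9428 to 9593 CPM in MB477 naive and 8379 to 8431 CPM in MB477 activated libraries, and 5287 to 5431 and 7013 to 7367 CPM in those with RNAi. The part of muscle RNA in the GstS1 values was not tested.

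The zeta gene GstZ2, of tyrosine breakdown, had its largest rise without CsChrimson. In MB131, GstZ2 lay at 51.4, 46.1 and 50.6 CPM in the naive and at 60.4, 61.3 and 61.1 CPM in the activated libraries, and with RNAi at 48.5, 49.8 and 59.9 and at 49.1, 40.03 and 44.6 CPM. In MB477, GstZ2 lay at 70.1, 74.1 and 69.6 CPM in the naive and at 65.7, 60.1 and 67.3 CPM in the activated libraries, and with RNAi at 47, 53.6 and 53.7 and at 43.5, 50.4 and 42.8 CPM. Without CsChrimson, GstZ2 lay at 37.9, 31.1 and 36.8 CPM in the naive and at 60.2, 62.3 and 62.6 CPM in the activated libraries. In the flies without CsChrimson the naive libraries were the lowest of all groups. GstZ2 rose in MB131 and without CsChrimson and fell in MB131 with RNAi, with log2 fold changes of 0.30 ± 0.08 in MB131 and -0.24 ± 0.08 with RNAi, -0.15 ± 0.08 in MB477 and -0.17 ± 0.09 with RNAi, and 0.81 ± 0.09 without CsChrimson. The 3 had edgeR adjusted p-values of 0.00355, 4.11e-13 and 0.0242. GstZ1 did not pass in any, with a mean level of 4.65 to 6.72 CPM over the groups.

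The question whether a response differs from that of flies lacking the channel was tested as the activation response in a line minus the response without CsChrimson. The line of the flies without CsChrimson is not named, so line and channel cannot be told apart in this difference. For MB131, none of the 31 genes had a larger and 1 had a smaller response, against 2.70% and 3.53% of all genes, and the 1 was GstZ2 (-0.50 ± 0.12, edgeR adjusted p = 0.0025). A count of 1 of 31 (3.23%) is near the share of all genes. At an unadjusted p under 0.05, 0 of the 31 had a larger response, and DESeq2 called 0. The differences for the epsilon genes that rose were near 0, for example -0.28 ± 0.29 for GstE8, -0.02 ± 0.13 for GstE1 and -0.12 ± 0.11 for GstE9. Their 95% intervals, -0.84 to 0.288, -0.28 to 0.249 and -0.334 to 0.0986, include 0 and do not show that the responses are equal.

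In MB477, 2 genes had a larger response than the flies without CsChrimson and 14 a smaller one, against 26.6% and 20.2% of all genes. The 2 were GstE7 (0.60 ± 0.23, edgeR adjusted p = 0.0278) and GstS1 (0.52 ± 0.11, edgeR adjusted p = 6.40e-05). The count of 2 was 1 without MB477 naive replicate 2, MB477 activated replicate 1 or 2, no CsChrimson naive replicate 2 or no CsChrimson activated replicate 3. Among the 14 were GstD1 (-0.56 ± 0.06), GstD10 (-1.15 ± 0.33), GstZ2 (-0.95 ± 0.12) and GstO3 (-0.62 ± 0.11), with edgeR adjusted p-values of at most 0.00204. This difference uses the MB477 naive libraries that stand apart and cannot be computed without them.

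The effect of RNAi against Kdm4B, the question in the title, was tested in each line, naive and activated. In naive MB131 none of the 31 rose and 2 fell, against 4.92% and 6.12% of all genes. The 2 of 31 falling (6.45%) are near the share of all genes. GstD1 fell by 0.24 ± 0.04 (log2, edgeR adjusted p = 7.06e-06), from 356, 361 and 349.6 to 314, 301 and 292 CPM, and all 3 RNAi libraries lay below all 3 others. GstE1 fell by 0.29 ± 0.10 (edgeR adjusted p = 0.0445), a call that ended under relative log expression scaling (edgeR adjusted p = 0.0579), DESeq2 (adjusted p = 0.0711) and the groups compared alone (edgeR adjusted p = 0.113), the fit without the MB477 naive group (edgeR adjusted p = 0.0520), and without MB131 naive replicate 1 or RNAi naive replicate 1 or 2. At an unadjusted p under 0.05, 1 of the 31 was higher with RNAi, and DESeq2 called 0.

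In activated MB131, 4 of 31 genes were higher with RNAi and 1 was lower (3.23%), against 5.84% and 5.65% of all genes. The 4 were GstE3 (0.36 ± 0.08), GstE7 (0.49 ± 0.15), GstE14 (0.26 ± 0.08) and GstE12 (0.13 ± 0.04), with edgeR adjusted p-values of at most 0.0281. Leaving out any of 5 of the 6 libraries (MB131 activated replicates 1, 2 and 3 or the RNAi activated replicates 1 and 2) brought the 4 to 1 or 2. GstZ2 was lower with RNAi (-0.45 ± 0.08, edgeR adjusted p = 2.14e-05). Muscle markers were lower with RNAi in 10 of 11 genes in naive and 11 of 11 in activated MB131, photoreceptor markers were lower in 7 and 8 of 12 and higher in 1 and 0, and Kenyon cell markers were lower in 3 of 12 in naive and higher in 6 of 12 in activated flies. Their part in these results was not tested.

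In naive MB477, 1 gene rose with RNAi and 19 fell, against 30.6% and 30.5% of all genes. The gene that rose was GstD11 (0.82 ± 0.17, edgeR adjusted p = 2.23e-05). Falls of the abundant members were -0.68 ± 0.04 for GstD1, -0.36 ± 0.04 for GstE12, -0.51 ± 0.08 for GstE6, -0.58 ± 0.08 for GstO3 and -0.70 ± 0.08 for GstT3, with edgeR adjusted p-values of at most 2.74e-08. GstD1 held 534, 528 and 536 CPM without and 323, 341 and 332 CPM with RNAi. GstD8 fell from 45 reads over 3 MB477 naive libraries to 12 over 3 RNAi ones, a ratio of 0.212 per library size with an exact 95% interval of 0.102 to 0.408. The comparison rests on the MB477 naive libraries, which stand apart on the first component, and cannot be computed without them. Markers moved with it: with RNAi, muscle markers were lower in all 11 tested genes (median log2 fold change -0.91), Kenyon cell markers were higher in 10 of 12 and lower in 2 (median 1.38), photoreceptor markers were higher in 10 and lower in 2 of 12, glia markers were higher in 8 of 10 and fat body markers were higher in 4 and lower in 4 of 9. Their part in the result was not tested.

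In activated MB477, which does not use those libraries, 11 genes were higher with RNAi and 1 was lower, against 11.9% and 10.0% of all genes. Among the 11 were 6 of the 10 genes of the epsilon run. GstE3 held 95.3, 89.9 and 86.1 CPM without and 149, 155 and 153 CPM with RNAi, and was higher with RNAi by 0.75 ± 0.08 (edgeR adjusted p = 1.53e-14). GstE4 was higher by 1.42 ± 0.48, GstE8 by 0.53 ± 0.16, GstE7 by 0.55 ± 0.14 and GstE6 by 0.29 ± 0.08, with edgeR adjusted p-values of at most 0.0229. GstE14 (0.49 ± 0.08), GstD1 (0.27 ± 0.04) and GstD11 (0.75 ± 0.20) were also higher with RNAi. The gene that was lower was GstZ2 (-0.50 ± 0.09, edgeR adjusted p = 1.78e-06), which held 65.7, 60.1 and 67.3 CPM without and 43.5, 50.4 and 42.8 CPM with RNAi. Of the fat body markers 6 of 9 were lower and 1 was higher with RNAi, and the summed level was 44390.1 to 46265 CPM without and 37056 to 37643 CPM with RNAi. Photoreceptor markers were lower in 9 of 12 genes and muscle markers in 9 of 11, and Kenyon cell markers were higher in 10 of 12. Their part in the result was not tested.

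To ask whether RNAi alters this response, the change with RNAi was compared with the change without, a difference that shares its libraries with the comparisons above. In MB131, 2 genes had a larger response with RNAi and 1 a smaller one, against 3.26% and 2.79% of all genes. The 1 of 31 with a smaller response (3.23%) is near the share of all genes. The response was larger for GstE3 by 0.44 ± 0.12 (edgeR adjusted p = 0.0125) and for GstD1 by 0.31 ± 0.06 (edgeR adjusted p = 2.92e-05), and smaller for GstZ2 by -0.54 ± 0.12 (edgeR adjusted p = 7.28e-04). Without MB131 naive replicate 1 the count of 2 was 1, and without MB131 naive replicate 3 it was 6. In MB477, 17 had a larger and 1 a smaller response, against 24.7% and 26.9% of all genes. This contrast uses the MB477 naive libraries that stand apart and cannot be computed without them. It includes the naive difference, in which 19 of the 31 genes were lower with RNAi. The differences were 0.97 ± 0.11 for GstE3, 0.89 ± 0.24 for GstE8, 0.96 ± 0.06 for GstD1 and 0.98 ± 0.12 for GstT3, with edgeR adjusted p-values of at most 0.00109, and GstS1 had the smaller response (-0.29 ± 0.11, edgeR adjusted p = 0.0225). The GstS1 call was lost without MB477 naive replicate 1, MB477 activated replicate 1, RNAi naive replicate 3 or RNAi activated replicate 3 (edgeR adjusted p 0.0544 to 0.0810), and the count of 1 was 0 without any of the last 3. GstE7, GstE9 and GstE10 did not pass, at 0.19 ± 0.22, -0.18 ± 0.10 and -0.12 ± 0.27.

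**Figure D5:**
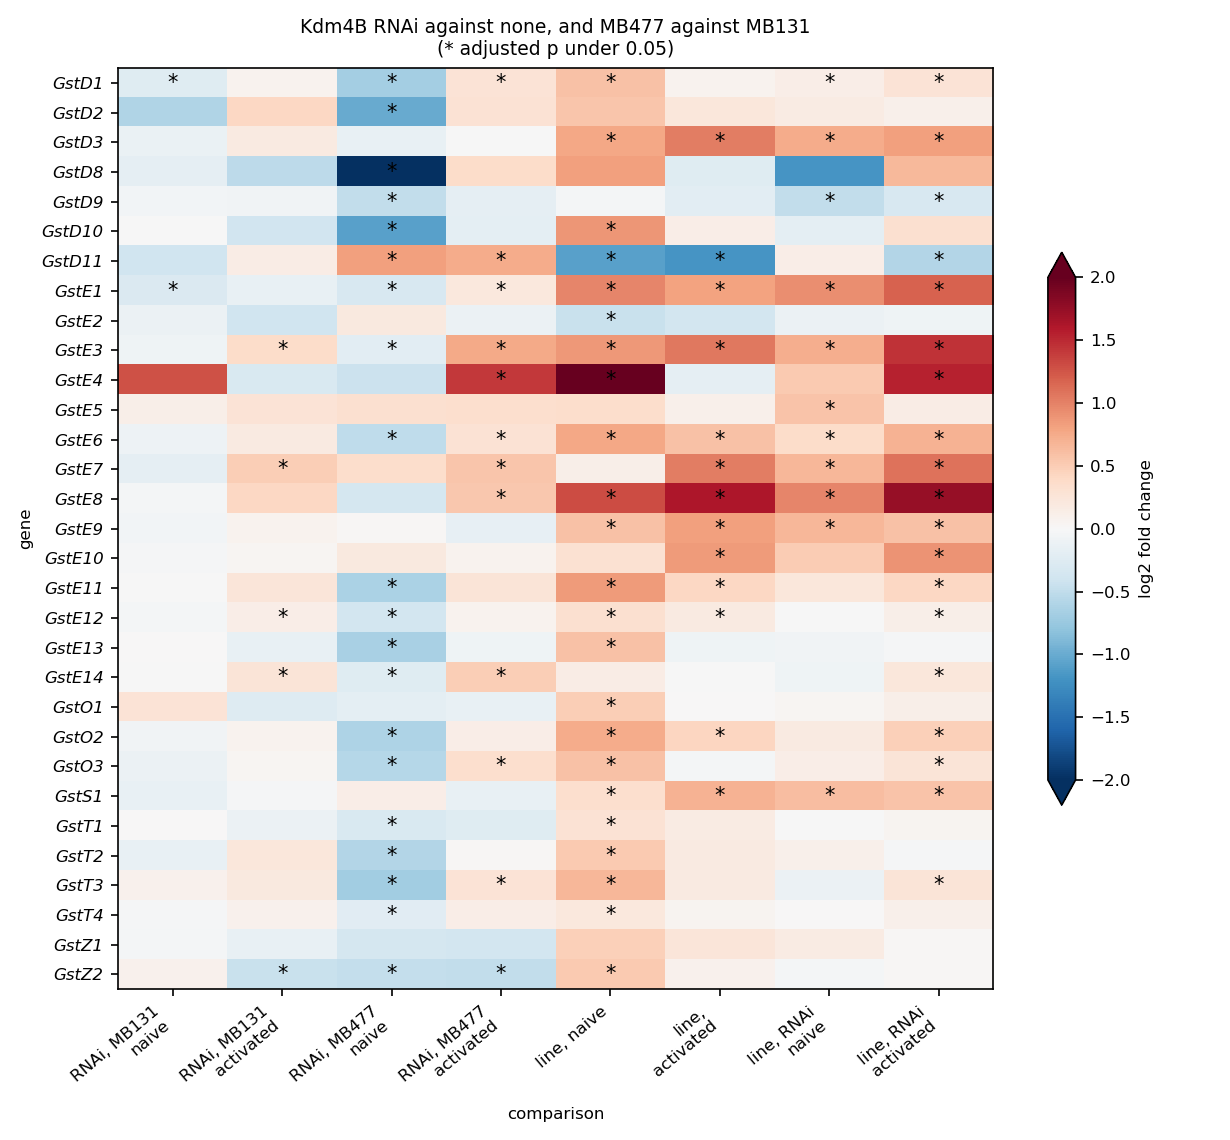
Log2 fold change of the 31 tested genes (rows) for Kdm4B RNAi against none in 4 settings (left 4 columns) and for MB477 against MB131 in 4 settings (right 4 columns), with asterisks where the edgeR adjusted p is under 0.05; colours stop at -2 and 2. Negative values with an asterisk fill 19 of 31 cells for RNAi in naive MB477, and GstE1, GstE3, GstE6, GstE8 and GstE9 are positive with an asterisk in all 4 line columns.

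The lines differed in the level of many of the genes, those of the epsilon run among them. In naive flies 21 genes were higher in MB477 than in MB131 and 2 were lower, against 29.0% and 31.6% of all genes, in activated flies 12 and 1, against 14.4% and 14.8%. With RNAi 10 were higher and 1 lower in naive flies, against 11.2% and 11.6%, and 17 and 2 in activated flies, against 16.6% and 15.6%. The 2 were GstD11 and GstD9, and the count was 1, by the loss of GstD9, without any 1 of the 6 libraries (edgeR adjusted p 0.0655 to 0.125) and with no filter (edgeR adjusted p = 0.0857). Genes of the run that passed as higher in MB477 numbered 6 of 10 naive, 7 activated, 7 naive with RNAi and 8 activated with RNAi. GstE1 was higher by 0.97 ± 0.09, 0.81 ± 0.08, 0.94 ± 0.09 and 1.17 ± 0.09 on the log2 scale in that order, and GstE8 by 1.30 ± 0.20, 1.61 ± 0.17, 0.98 ± 0.20 and 1.74 ± 0.17, with edgeR adjusted p-values of at most 4.33e-05. GstD3 was higher in MB477 in all 4, by 0.77 ± 0.24, 1.02 ± 0.25, 0.75 ± 0.24 and 0.83 ± 0.25, and GstD11 was lower in 3, by -1.09 ± 0.17 in naive flies, -1.18 ± 0.18 in activated flies and -0.59 ± 0.18 in activated flies with RNAi. GstS1 was also higher in MB477 in all 4, by 0.33, 0.70, 0.62 and 0.57. In naive flies all 3 omega genes, all 4 theta genes and 3 of the 4 other epsilon genes passed as higher, too. The line comparisons share libraries with those of RNAi and activation. The naive one uses the MB477 naive libraries that stand apart on the first component. Fat body markers summed to 13897 to 14208 CPM in MB131 naive and 21954 to 22512 CPM in MB477 naive libraries, and muscle markers to 6691 to 7179 and 9428 to 9593 CPM. In the order naive, activated, naive with RNAi and activated with RNAi, fat body markers were higher in MB477 in 7, 6, 6 and 7 of 9 genes and lower in 0, 0, 1 and 0, and muscle markers were higher in 9, 10, 2 and 11 and lower in 1, 0, 6 and 0 of 11. Kenyon cell markers were higher in 2, 0, 1 and 0 and lower in 10, 12, 3 and 10 of 12, and photoreceptor markers were higher in 3, 1, 10 and 1 and lower in 9, 9, 0 and 7 of 12. Their part in the line differences was not tested.

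Other genes of the pathway were counted in lists, to be read against the shares of all genes that passed on activation: 12.7% higher and 11.8% lower in MB131, 13.8% and 13.0% with RNAi, 31.8% and 27.7% in MB477, 15.6% and 13.1% with RNAi, and 11.1% and 9.98% without CsChrimson. A list of the CncC pathway held 5 genes, and whether each of them sets CncC activity in the fly was not tested. Of these, ref(2)P, the fly homologue of mammalian p62, rose in all 5 activation comparisons. It rose by 0.76 ± 0.05 in MB131, 0.77 ± 0.05 with RNAi, 1.60 ± 0.05 in MB477, 1.13 ± 0.05 with RNAi and 0.62 ± 0.05 without CsChrimson. The partner protein gene maf-S rose in 4 and fell in MB477 (-0.58 ± 0.08), and cnc itself fell in MB477 (-0.22 ± 0.04) and without CsChrimson (-0.11 ± 0.04) and rose in MB477 with RNAi (0.24 ± 0.04). Keap1, the repressor of CncC, rose in MB131 with RNAi (0.33 ± 0.08), in MB477 (0.20 ± 0.09) and in MB477 with RNAi (0.34 ± 0.08), and did not pass in MB131 (0.10 ± 0.08) or without CsChrimson (-0.03 ± 0.08). Over the 5 genes, 2, 3, 3, 4 and 2 rose and 0, 0, 2, 0 and 2 fell in the same order.

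Of 11 genes of glutathione synthesis and other glutathione enzymes, 10 were tested, and 0 rose and 2 fell in MB131, 1 and 1 with RNAi, 3 and 4 in MB477, 2 and 1 with RNAi, and 0 and 2 without CsChrimson. The 3 and 4 of 10 in MB477 are near the background shares. The glutamate-cysteine ligase genes, whose enzyme makes the first step of glutathione synthesis, rose in MB477 (Gclc 0.54 ± 0.06, Gclm 0.27 ± 0.07) and in MB477 with RNAi (Gclc 0.33 ± 0.06, Gclm 0.30 ± 0.07). Of the transferases outside the name rule, se fell in 4 of the 5, with log2 fold changes of -0.38 ± 0.10 in MB131, -0.57 ± 0.11 with RNAi, -0.28 ± 0.10 without CsChrimson and -1.501 ± 0.10 in MB477. Mgstl fell in MB477 (-0.50 ± 0.05) and rose in MB131 with RNAi (0.23 ± 0.05), and gfzf rose in MB477 (0.47 ± 0.10). Of 15 superoxide, peroxide and thioredoxin genes, 13 were tested, and 4 rose and 1 fell in MB131, 7 and 2 with RNAi, 3 and 8 in MB477, 9 and 2 with RNAi, and 4 and 2 without CsChrimson. Trxr1, thioredoxin reductase, rose in MB131 (0.64 ± 0.04), in MB131 with RNAi (0.82 ± 0.04) and in MB477 with RNAi (1.06 ± 0.04). Up to 2 genes were named per list and comparison, so the absence of Trxr1 for MB477 and without CsChrimson does not show that it failed the test there.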

How the data were processed

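The deposited table holds whole-number read counts per gene for 30 libraries. STAR, HTSeq, DESeq2 and the dm6 assembly are named, without versions or order, per the submitters' processing notes. The authors' own comparison table was not used here. The deposited counts went unchanged into edgeR 4.0.16 under R 4.3.3. The filterByExpr rule (count of at least 10, total of at least 15) kept 11457 of 17559 genes. Libraries were scaled with TMM. All 30 libraries entered 1 model of 10 group means (20 residual degrees of freedom), with the robust quasi-likelihood F test of edgeR, both directions, Benjamini-Hochberg over all genes tested, threshold 0.05. The SE is the absolute log2 change divided by the square root of F. CPM uses TMM library sizes and RPKM exon-union length. The 17 comparisons were 5 of activation, 4 of RNAi, 4 between lines and 4 differences of responses. The test was also run on counts simulated from the fitted model itself, which cannot show whether that model suits these libraries or whether replicates were technical. Tables and figures used Python 3.11.15, pandas 2.3.3 and matplotlib 3.10.9.

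Members were chosen by name, and they and the gene lists were chosen with earlier results of these data known. Values per library were given for genes past the test in most activation comparisons, for the 4 largest changes and for the most abundant gene per class. Those of GstD3 and GstT3, and of GstE2 in MB477, were given outside these rules. In pathway lists up to 2 genes per comparison were named, with glutathione transferases outside the name rule and CncC regulators described after their values were seen. Other settings tried were scaling by relative log expression, no filter, DESeq2 1.42.0, only the groups compared, a replicate block, leaving out each library and, added after seeing the data, leaving out the MB477 naive group. Reads can be PCR copies of 1 molecule, so floors of 3 reads and 95% intervals of read ratios describe counting error alone.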

Additional observations from a re-analysis of the deposited data

Results flagged for a closer look

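Responses to activation differed past the test between kinds of fly for the genes below; values are differences of log2 fold changes by edgeR's quasi-likelihood test. With RNAi minus without in MB131, the response was 0.31 higher for GstD1, 0.44 higher for GstE3 and changed by -0.54 for GstZ2. With RNAi minus without in MB477, it was higher by 0.96 for GstD1, 1.29 for GstD2, 2.55 for GstD8, 0.43 for GstE12, 0.36 for GstT4, 0.98 for GstT3, 0.73 for GstE14, 0.54 for GstE1, 0.89 for GstE11, 0.91 for GstO3, 0.76 for GstO2, 0.89 for GstD10, 0.61 for GstT2, 0.89 for GstE8, 0.80 for GstE6, 1.85 for GstE4 and 0.97 for GstE3. For GstS1 that difference was -0.29.

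In MB131 minus the flies without CsChrimson, the difference was -0.50 for GstZ2. In MB477 minus the flies without CsChrimson, it was 0.52 for GstS1 and 0.60 for GstE7. It was -0.56 for GstD1, -1.81 for GstD2, -3.68 for GstD8, -0.22 for GstE12, -0.40 for GstT3, -0.63 for GstE13, -0.29 for GstE14, -0.54 for GstE11, -0.62 for GstO3, -0.40 for GstO2, -0.95 for GstZ2, -1.15 for GstD10, -0.27 for GstE6 and -2.33 for GstE4. All differences for MB477 share the MB477 naive libraries, which stand apart on the first principal component, and the part of that in them was not tested. GstD8 had 3 reads over the 3 naive libraries without CsChrimson.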

How the results depend on the processing

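Of 527 values (31 genes in 17 comparisons), 226 passed the test, 49 of these lost it under at least 1 alternative, and none changed direction. Relative log expression scaling lost 2 calls and moved the median of all genes by at most 0.0145 log2. The replicate block lost 1 call, GstD8 without CsChrimson (edgeR adjusted p 0.0513), and gained none. Same-numbered libraries did not deviate together (75 pairs, r -0.048 to 0.055 where 0.1 was asked), so they were not treated as pairs. The labels do not show whether they were prepared together, and these values cannot tell.

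Small counts of genes moved most. Genes lower with RNAi in naive MB131 went from 2 to 1 under relative log expression scaling, DESeq2, the groups compared alone and the fit without the MB477 naive group. Genes higher with RNAi in naive MB477 went from 1 to 2 under relative log expression scaling and DESeq2. Genes lower in MB477 than MB131, activated with RNAi, went from 2 to 1 with no filter, and those lower in MB477 than MB131, activated, from 1 to 2 under DESeq2 and the groups compared alone. Genes lower with RNAi in activated MB131 went from 1 to 2 with the groups compared alone. The causes were not tested.

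Leaving out 1 library gave these ranges. Some larger counts were lower in every such fit. Higher on activation without CsChrimson was 11 to 12 against 13, and higher with RNAi in activated MB477 was 9 to 10 against 11. Higher in MB477 than MB131, activated with RNAi, was 13 to 16 against 17. The count lower with RNAi in naive MB131 was 1 to 3 (1 without MB131 naive replicate 1 or RNAi naive replicate 1 or 2). Higher with RNAi in activated MB131 was 1 to 4 and lower 1 to 2 (2 without MB131 activated replicate 1). A larger response with RNAi in MB131 was 1 to 6. Lower in MB477 than MB131 was 1 to 2 in naive flies (1 without MB131 naive replicate 3 or MB477 naive replicate 1 or 3), 1 to 2 in activated flies (2 without MB131 activated replicate 1) and 1 in activated flies with RNAi, whichever of the 6 libraries was left out. Lower after activation was 1 to 3 in MB131 with RNAi (1 without activated replicate 3) and 1 to 2 in MB477 with RNAi (2 without activated replicate 2). Higher with RNAi in naive MB477 was 1 to 3 (more without MB477 naive replicate 3 or RNAi naive replicate 2 or 3), and lower with RNAi in activated MB477 was 1 to 2 (2 without MB477 activated replicate 1). A smaller response with RNAi in MB477 was 0 to 1 (0 without MB477 activated replicate 1, RNAi naive replicate 3 or RNAi activated replicate 3). A larger response in MB477 than without CsChrimson was 1 to 3. The 7 genes higher in all 5 activation comparisons were 6 to 7, and the 10 in the other 4 were 9 to 10. GstD8, GstE4 and GstD2 are limited by depth, with means under 4 CPM.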

Other observations

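Other detoxification genes were described by lists chosen with earlier results known. Of 30 cytochrome P450 genes of the first phase of detoxification, 29 were tested, and 3 rose and 5 fell on activation in MB131, 9 and 6 with RNAi, 12 and 6 in MB477, 12 and 3 with RNAi, and 11 and 5 without CsChrimson. Of all genes, 12.7% rose and 11.8% fell in MB131, 13.8% and 13.0% with RNAi, 31.8% and 27.7% in MB477, 15.6% and 13.1% with RNAi, and 11.1% and 9.98% without CsChrimson. Cyp309a1 rose by 2.45 ± 0.17 in MB131 with RNAi and 2.43 ± 0.16 in MB477 with RNAi on the log2 scale. It rose by 0.97 ± 0.16 in MB131 and 0.58 ± 0.16 without CsChrimson, and its own value in MB477 without RNAi is not given here. In MB477 its response with RNAi exceeded that without by 1.99 ± 0.21. It was lower with RNAi in naive MB131 (-0.96 ± 0.19) and naive MB477 (-2.05 ± 0.16). The last 1.99 and -2.05 use the MB477 naive libraries that stand apart. In activated MB477, 14 of 29 were higher with RNAi and 3 lower, against 11.9% and 10.0% of all genes. Among the 14 were Cyp6a8 (1.72 ± 0.17) and Cyp4e3 (1.03 ± 0.09).

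Of 27 UDP-glycosyltransferase and efflux pump genes, 20 were tested, and 7 rose and 2 fell in MB131, 3 and 4 with RNAi, 4 and 5 in MB477, 2 and 3 with RNAi, and 5 and 3 without CsChrimson. Ugt301D1 fell in MB131 (-0.87 ± 0.05) and in MB131 with RNAi (-1.16 ± 0.05), and Ugt35B1 rose without CsChrimson (0.96 ± 0.06). Values of these genes in the comparisons not named are not given here.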
